A study of Mus musculus with 12 samples.

Results

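Collagen and laminin genes encode the fibres and sheets of the extracellular matrix. The family was taken as every row of the expression table whose symbol follows the pattern Col, number, a, number (collagen chains) or Lam, a, b or c, number (laminin chains), and this gave 55 of 23421 gene symbols. They comprise 11 fibrillar collagens, 8 basement membrane collagens, 25 other collagens and 11 laminin chains.

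RNA was sequenced from mouse cells sorted for T (Brachyury), a transcription factor of the primitive streak and early mesoderm. Sorted embryo cells came from T_Y88A mutants, which carry an amino acid substitution in T, as 1 library of Theiler stage TS13 and 1 of TS12, and from embryos labelled wild type (wt), as 1 library covering TS12 and TS13. Day 4 cells were sorted from cultures of embryonic stem cells differentiated in vitro towards mesoderm, with 1 library of T_Y88A and 1 labelled wt. The strain background of all groups was 129S2/C57Bl6J. Per the labels' protocols the cultures grew on dishes coated with fibronectin, itself a matrix protein, first with BMP4 and then with WNT3A and FGF8. The series text calls T_het embryos wild type, and the table's column for the embryo wt library begins with the letters used for the mutant, so directions in the embryo rest on the sample label. The labels do not state how many embryos, cultures or stem cell clones went into a library. Another 7 samples of chromatin immunoprecipitation were not analysed here.

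Values are FPKM, fragment counts corrected for gene length and library size, so levels can be set side by side between genes. Absolute depth is unknown. Relative to the embryo wt library, depth read from the steps between low values was 0.971 and 0.754 for T_Y88A TS13 and TS12, 0.493 for Day 4 T_Y88A and 1.04 for the Day 4 wt library. T itself, the gene the cells were sorted for, had 26.99 and 69.8 FPKM in T_Y88A TS13 and TS12, against 65.9 FPKM in the embryo wt library, and 32.5 FPKM in Day 4 T_Y88A, against 72.9 FPKM in the Day 4 wt library. It was thus over 2-fold lower in TS13 than in TS12 (log2 difference -1.34) and in Day 4 T_Y88A than in Day 4 wt (-1.14), each with 1 library a side and no test, and its part in those comparisons was not tested. In bulk RNA, fewer cells of a type and less RNA per cell cannot be told apart.

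Basement membranes are thin sheets built from a laminin network and a collagen IV network, joined by nidogens and heparan sulfate proteoglycans. Laminins are heterotrimers of an alpha, a beta and a gamma chain, and the alpha chain sets which receptors are bound. In the gastrulating mouse embryo, mesoderm leaves the epiblast through a breach in the basement membrane at the primitive streak and then spreads between sheets of matrix. Fibrillar collagens, in contrast, make the banded fibres of connective tissue, cartilage and bone, and mesenchymal cells are their main source.

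The 2 collagen IV pairs above 1 FPKM are neighbours that start back to back on opposite strands, an arrangement known to give paired chains a common control region. The windows around their starts, from 250 bases before to 50 after, are shown because the chains of each pair lay on the same side of wt in both T_Y88A embryo libraries. None of these genes passed in embryo cells (limma adjusted p from 0.108 to 0.317). Of all genes, 75% had both T_Y88A libraries on the same side of wt. In Day 4 cells Col4a1 and Col4a2 lay on opposite sides of wt. The part of a common control region in these values was not tested. The windows are RefSeq sequences of build GRCm38.p6 (mm10), written 5′ to 3′ on each gene's own strand. Capitals mark GC boxes (GGGCGG) and CCAAT boxes on either strand, and no 2 of these matches overlap within a window. Col4a1 lies on the minus strand at chr8:11312777-11313076 and Col4a2 on the plus strand at chr8:11312555-11312854. Col4a6 lies on the minus strand at chrX:141474027-141474326 and Col4a5 on the plus strand at chrX:141475169-141475468.
Col4a1: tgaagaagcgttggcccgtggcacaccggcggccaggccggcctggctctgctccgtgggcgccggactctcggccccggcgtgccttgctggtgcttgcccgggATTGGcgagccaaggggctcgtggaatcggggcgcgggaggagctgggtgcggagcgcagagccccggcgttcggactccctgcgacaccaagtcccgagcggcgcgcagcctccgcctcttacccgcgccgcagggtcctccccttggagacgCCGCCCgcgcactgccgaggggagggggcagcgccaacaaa
Col4a2: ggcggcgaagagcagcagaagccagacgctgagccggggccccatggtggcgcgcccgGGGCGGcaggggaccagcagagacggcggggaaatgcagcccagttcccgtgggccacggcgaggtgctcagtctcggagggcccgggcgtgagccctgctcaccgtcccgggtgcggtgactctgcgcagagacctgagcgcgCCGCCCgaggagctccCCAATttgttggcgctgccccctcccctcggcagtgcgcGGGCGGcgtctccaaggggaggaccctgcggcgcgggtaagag
Col4a6: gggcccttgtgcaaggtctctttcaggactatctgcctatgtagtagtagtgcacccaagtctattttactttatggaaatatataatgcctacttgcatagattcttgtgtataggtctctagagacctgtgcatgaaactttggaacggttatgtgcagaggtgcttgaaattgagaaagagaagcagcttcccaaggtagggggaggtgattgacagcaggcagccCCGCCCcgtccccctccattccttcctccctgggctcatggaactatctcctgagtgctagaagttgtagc
Col4a5: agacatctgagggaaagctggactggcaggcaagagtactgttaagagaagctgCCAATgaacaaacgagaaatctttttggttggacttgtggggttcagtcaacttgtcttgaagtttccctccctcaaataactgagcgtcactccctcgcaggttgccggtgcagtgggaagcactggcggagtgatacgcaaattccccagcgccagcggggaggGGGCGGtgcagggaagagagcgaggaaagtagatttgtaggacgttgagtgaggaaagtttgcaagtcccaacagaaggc

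The windows of Col4a1 and Col4a2 share 78 bases, and those of Col4a6 and Col4a5 are separated by 842 bases. The Col4a1 and Col4a2 windows are richer in G and C, at 74% for Col4a1 and 73.7% for Col4a2, against 48.3% for Col4a6, 52.7% for Col4a5 and a median of 52.7% over all 32851 windows. GC boxes were found in all 4 windows, 3 of them in that of Col4a2, and the 1 in that of Col4a1 lies in the bases both windows share. CCAAT boxes were found in all but that of Col4a6. Of 40 family members with a sequence, 25 held a GC box and 14 a CCAAT box, against 35.7% and 37.4% of all windows, and 5 held a TATA box (TATAAA, either strand), against 13.6%. The core of the T binding site, TCACACCT on either strand, was in the windows of 0 of 40 members, against 1.28% of all windows. At so small a share, 0 of 40 does not set members apart from other genes. Lama1, Lamc1, Lama4, Col1a1, Col2a1 and Col5a2 were among the members without a sequence and were not searched. Members were counted once per gene and the shares of all windows once per window, so the units differ. The boxes and sites are matches of letters and say nothing about binding.

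Every library was dominated by the same few basement membrane genes. Col18a1, whose product is a heparan sulfate proteoglycan and the source of endostatin, had the highest level of the family in each, between 36.2 and 85.1 FPKM. Lamb1 and Lamc1, the beta and gamma chains of most early laminins, lay at 25.3 to 34.6 and 17.9 to 29.7 FPKM over the 5 libraries. They were the next highest in embryo cells, and in Day 4 cells Lama5 was among them. Of the 55 genes, 24 averaged at least 1 FPKM over the 5 libraries, namely 6 laminin chains, 5 basement membrane collagens, 8 fibrillar collagens and 5 other collagens. Just inside that level were Col11a1 and Col23a1 and just outside it Col24a1, with a mean of 0.997 FPKM, which passed the same filter over the 3 embryo libraries.

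**Figure D1:**
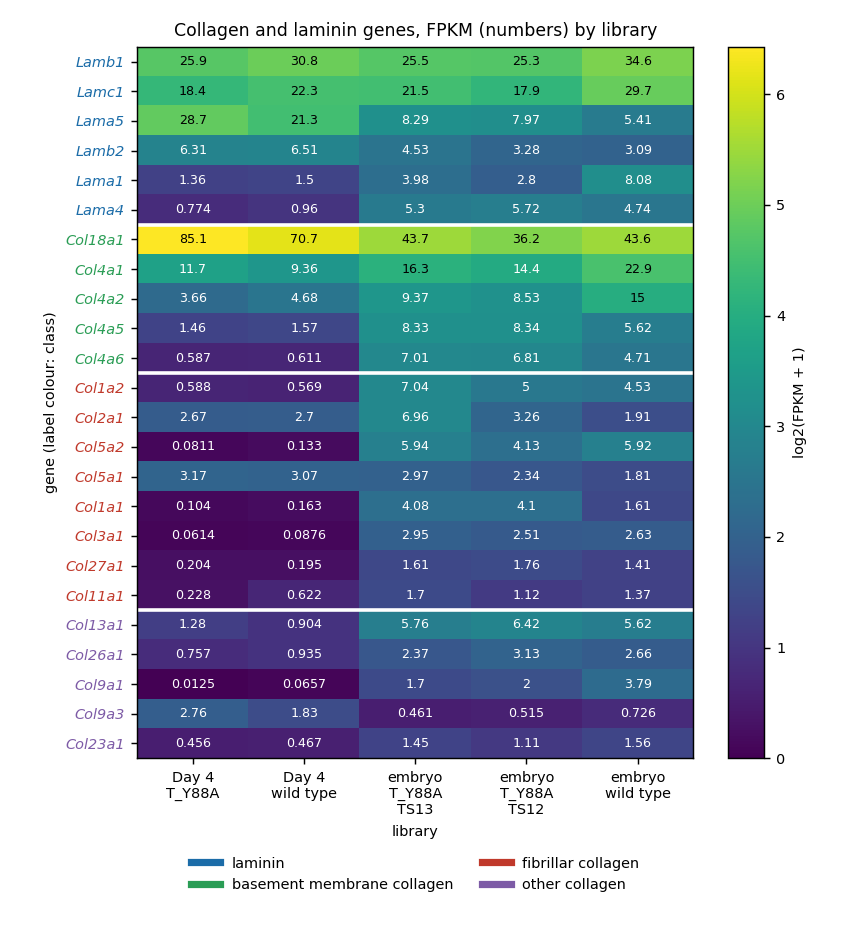
FPKM of the 24 collagen and laminin genes that averaged at least 1 FPKM over the 5 libraries, with rows grouped by class and colours on the log2(FPKM + 1) scale. Col18a1, Lamb1 and Lamc1 are high in all columns, while most fibrillar collagens are low in both Day 4 columns.

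Summed over the class, fibrillar collagens reached 34.9 and 26.0 FPKM in T_Y88A TS13 and TS12 and 23.7 FPKM in the embryo wt library. Basement membrane collagens summed to 84.8 and 74.3 FPKM in T_Y88A TS13 and TS12, against 92.0 FPKM in that library. Laminin chains summed to 69.8 and 63.7 FPKM in T_Y88A TS13 and TS12, against 87.1 FPKM. The other collagens, 25 genes together, gave only 15.0 and 16.5 FPKM in T_Y88A TS13 and TS12 and 16.8 FPKM in the wt library.

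The embryo comparison asks whether mutant T-positive cells differ in the matrix genes they express. Lama1, the alpha chain of the first laminin of the embryo, was the 1 of 24 tested members that limma called. It stood at 3.98 and 2.80 FPKM in T_Y88A TS13 and TS12, against 8.08 FPKM in the wt library. Both mutant libraries thus lay below that library, at a mean of 3.39 ± 0.834 FPKM (SD, n = 2). The log2 difference was -1.06 ± 0.25 (SE, limma adjusted p = 0.0493). Lama1 lies on chromosome 17 at 67697127 to 67822645 (mm10).

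Of 24 members tested in embryos, 0 rose and 1 fell, which is 4.17% against the 2.4% of all 11145 genes that limma called (0.763% higher and 1.63% lower). At an unadjusted p under 0.05 there were 10 of 24 members and 1826 of 11145 genes. The members' median log2 difference was 0.032, and that of all genes -0.0055. Both T_Y88A libraries lay on the same side of wt for 19 of 24 members, 11 above and 8 below, against 75% of all genes, 37% above and 38% below. The wt side is 1 library and the spread comes from the pair of T_Y88A libraries, which also differ in stage. The Lama1 call is near the threshold and ended in 5 of 6 alternative fits that tested it, with adjusted p from 0.0491 to 0.364 over all 6.

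Both partner chains of Lama1, in the laminin made of alpha 1, beta 1 and gamma 1, had lower values in the mutant without passing the test. Lamb1 stood at 25.5 and 25.3 FPKM in T_Y88A TS13 and TS12, against 34.6 FPKM in the wt library (log2 difference -0.43 ± 0.18 SE, limma adjusted p = 0.244). Lamc1 stood at 21.5 and 17.9 FPKM, against 29.7 FPKM (log2 difference -0.57 ± 0.19 SE, limma adjusted p = 0.155). For both chains the mutant values did not overlap with the single other value.

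The other tested alpha chains, and the beta chain Lamb2, had values on the other side without passing the test. Lama5, the alpha chain that replaces Lama1 in most basement membranes later in development, had 8.29 and 7.97 FPKM in T_Y88A TS13 and TS12, against 5.41 FPKM in the wt library (log2 difference 0.51 ± 0.21 SE, limma adjusted p = 0.260). Lama4, the alpha chain of vessels and mesenchyme, had 5.30 and 5.72 FPKM, against 4.74 FPKM (log2 difference 0.18, limma adjusted p = 0.757). Lamb2, a beta chain known from the kidney filter and the neuromuscular junction, had 4.53 and 3.28 FPKM, against 3.09 FPKM (log2 difference 0.25, limma adjusted p = 0.702).

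The make-up of the alpha chains differed between the embryo libraries, with no test of these shares. Lama1 made 22.4% and 16.9% of the summed FPKM of the 5 alpha chain genes in T_Y88A TS13 and TS12, against 43.0% in the wt library. Lama5 made 46.7% and 48.1%, against 28.8%. The ratio of Lama5 to Lama1 was 2.08 and 2.84 in the mutant libraries and 0.670 in the other. The summed alpha level itself was close in the 3 libraries, at 17.7 and 16.6 FPKM in T_Y88A TS13 and TS12 and 18.8 FPKM in the wt library.

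**Figure D2:**
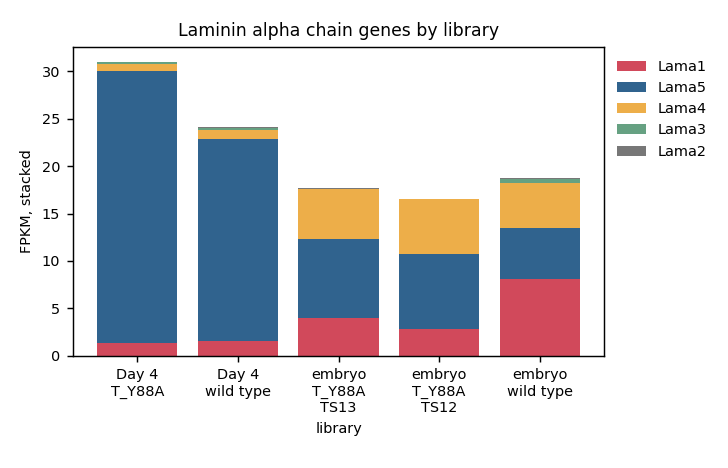
Stacked FPKM of the 5 laminin alpha chain genes in each library. Lama1 is the largest part in the embryo wt library (43.0%), and Lama5 in both T_Y88A embryo libraries and in both Day 4 libraries, where it made 92.3% (T_Y88A) and 88.5% (wt).

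Lama3, Lamb3, Lama2 and Lamc3 averaged under 1 FPKM. Lama3 and Lamb3, chains known from skin, stayed at or below 0.451 FPKM in every embryo library. Lama3 had 0.0622 and 0.0370 FPKM in T_Y88A TS13 and TS12, against 0.451 FPKM in the wt library, below the level tested. Lama2, the alpha chain of muscle, and Lamc3 lay at or below 0.112 FPKM in all libraries. Lamc3 was listed at 0 in 2 of them.

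Collagen IV split by pair. Col4a1 and Col4a2 form the collagen IV trimer found in nearly all basement membranes, and their genes overlap by 85 bases on chromosome 8 (Col4a1 from 11198423 to 11312889). Col4a1 stood at 16.3 and 14.4 FPKM in T_Y88A TS13 and TS12, against 22.9 FPKM in the wt library (log2 difference -0.55 ± 0.19 SE, limma adjusted p = 0.174). Col4a2 stood at 9.37 and 8.53 FPKM, against 15.0 FPKM (log2 difference -0.69 ± 0.20 SE, limma adjusted p = 0.108). Neither passed, and in both the mutant values lay below the other.

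Col4a5 and Col4a6, which form a trimer of their own in a smaller set of basement membranes, lie 1274 bases apart on chromosome X and lay above wt in both mutant libraries. Col4a5 had 8.33 and 8.34 FPKM in T_Y88A TS13 and TS12, against 5.62 FPKM in the wt library (log2 difference 0.50 ± 0.21 SE, limma adjusted p = 0.269). Col4a6 had 7.01 and 6.81 FPKM, against 4.71 FPKM (log2 difference 0.47 ± 0.22 SE, limma adjusted p = 0.317). Together this pair made 37.4% and 39.8% of the summed collagen IV FPKM in T_Y88A TS13 and TS12 and 21.4% in the wt library. Within the pairs the ratios were close between libraries, with Col4a5 to Col4a6 at 1.19 and 1.22 in the mutant libraries and 1.19 in the other, and Col4a1 to Col4a2 at 1.74 and 1.68 in the mutant libraries and 1.52 in the other.

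Col4a3 and Col4a4, the third back-to-back pair, known from the kidney filter, were nearly silent. Their highest value in any library was 0.0462 FPKM. Col15a1, the relative of Col18a1 found at vessels and muscle, reached 0.145 FPKM at most. Col18a1 itself had 43.7 and 36.2 FPKM in T_Y88A TS13 and TS12 and 43.6 FPKM in the wt library, so the groups overlapped (log2 difference -0.13, limma adjusted p = 0.790).

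**Figure D3:**
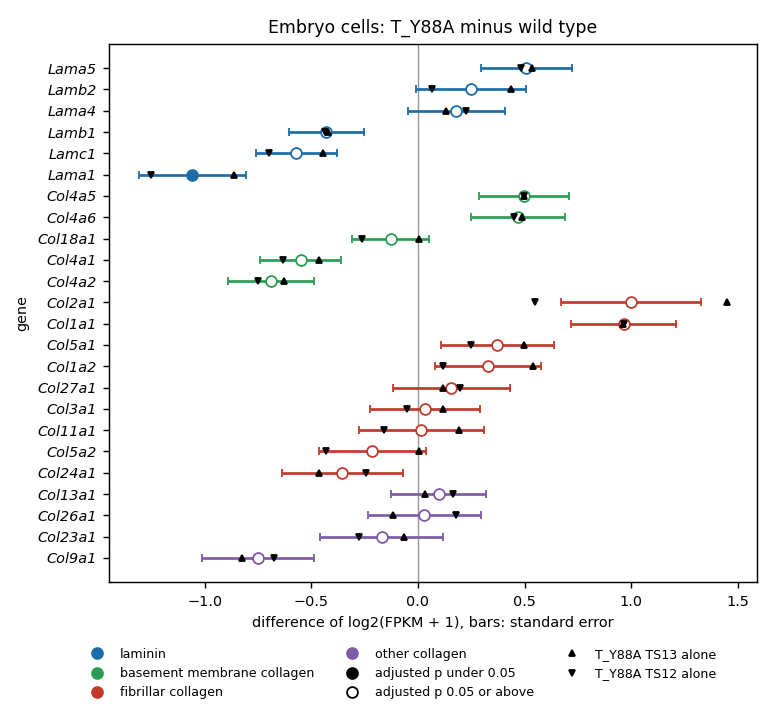
Difference of log2(FPKM + 1), T_Y88A minus wt in embryo cells, for the 24 members tested, with circles at the mean, bars for the limma standard error and triangles for each T_Y88A library alone. Lama1 is the 1 filled circle, at -1.06, and the chains of each collagen IV pair lie beside one another.

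Fibrillar collagens were low in the embryo cells, and none of 9 tested passed in limma (2 at an unadjusted p under 0.05, median log2 difference 0.16). Col1a1, a chain of the type I collagen of bone and skin, had 4.08 and 4.10 FPKM in T_Y88A TS13 and TS12, against 1.61 FPKM in the wt library. The groups did not overlap, and the log2 difference was 0.97 ± 0.25 (SE, limma adjusted p = 0.0665). Col1a2, the other type I chain, had 7.04 and 5.00 FPKM, against 4.53 FPKM (log2 difference 0.33, limma adjusted p = 0.569). The ratio of Col1a2 to Col1a1, whose products join as 1 Col1a2 chain to 2 Col1a1 chains, was 1.73 and 1.22 in T_Y88A TS13 and TS12 and 2.82 in the wt library.

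Col2a1, the collagen of cartilage that the notochord also makes, had 6.96 and 3.26 FPKM in T_Y88A TS13 and TS12, against 1.91 FPKM in the wt library (log2 difference 1.00 ± 0.33 SE, limma adjusted p = 0.151). Both mutant values lay above wt, and on log2(FPKM + 1) they differed from each other more than for any other member tested. Beside it, 1 of 2 tested notochord and node markers, Shh, fell, and both had an unadjusted p under 0.05. The 6 notochord and node genes summed to 3.86 and 4.52 FPKM in T_Y88A TS13 and TS12, against 11.7 FPKM, with Noto and Foxj1 listed at 0 in both mutant libraries. The 5 sclerotome and cartilage markers summed to 0.659 and 0.457 FPKM in the mutant libraries and 1.06 FPKM in the other, with Nkx3-2 listed at 0 in all 3 and Acan in the wt library. The part of these cells in the Col2a1 values was not tested.

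Col3a1, the partner of type I collagen in soft tissue, and Col5a1 and Col5a2, chains that set fibril width, gave no call. Col3a1 had 2.95 and 2.51 FPKM in T_Y88A TS13 and TS12 and 2.63 FPKM in the wt library (limma adjusted p = 0.972). Col5a2, whose gene lies 24624 bases from Col3a1 on chromosome 1, had 5.94 and 4.13 FPKM and 5.92 FPKM (limma adjusted p = 0.741). Mutant and wt values overlapped for both. Col5a1 had 2.97 and 2.34 FPKM, against 1.81 FPKM (log2 difference 0.37, limma adjusted p = 0.545).

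Minor fibrillar chains of cartilage and bone lay near 1 FPKM. Col27a1 had 1.61 and 1.76 FPKM in T_Y88A TS13 and TS12 and 1.41 FPKM in the wt library, Col11a1 had 1.70 and 1.12 FPKM and 1.37 FPKM, and Col24a1 had 1.13 and 1.48 FPKM and 1.94 FPKM. Their limma adjusted p values ranged from 0.601 for Col24a1 to 0.987 for Col11a1. Col11a2 and Col5a3 lay at or below 0.618 FPKM in all libraries.

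Among the other collagens, 4 of 25 were tested in embryos and none passed in limma (1 at an unadjusted p under 0.05, median log2 difference -0.070). Col9a1, a chain that decorates cartilage fibrils, had 1.70 and 2.00 FPKM in T_Y88A TS13 and TS12, against 3.79 FPKM in the wt library (log2 difference -0.75 ± 0.26 SE, limma adjusted p = 0.175). Both mutant values lay below wt. Col13a1, a transmembrane collagen, had 5.76 and 6.42 FPKM, against 5.62 FPKM (limma adjusted p = 0.891). Col23a1, also a transmembrane collagen, had 1.45 and 1.11 FPKM, against 1.56 FPKM, and Col26a1 had 2.37 and 3.13 FPKM, with 2.66 FPKM between them in the wt library.

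The remaining 20 other collagens averaged under 1 FPKM, and 17 of these stayed under 1 FPKM in every library. They include Col6a1 to Col6a6 of beaded filaments, Col7a1 of anchoring fibrils, Col10a1 of growing cartilage, Col17a1 of epithelial attachment plaques, and Col8a1, Col8a2, Col9a2, Col12a1, Col14a1, Col16a1, Col19a1, Col20a1, Col22a1, Col25a1 and Col28a1. Col14a1, which binds to the surface of fibrils, had 0.227 and 0.529 FPKM in T_Y88A TS13 and TS12 and 0.00373 FPKM in the wt library. This level was below that tested.

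Among the genes that work with these chains, Nid1 fell in the mutant embryo cells. Nid1 encodes nidogen, the linker that binds the laminin gamma 1 chain and collagen IV. It stood at 4.41 and 2.54 FPKM in T_Y88A TS13 and TS12, against 10.4 FPKM in the wt library (log2 difference -1.38 ± 0.27 SE, limma adjusted p = 0.0215). This call ended with no filter (0.364), under quantile normalization (0.107) and without the variance trend (0.0542).

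The other 10 of 11 basement membrane partners tested did not pass, and the list's median log2 difference was -0.17. Its most abundant members were Sparc, a collagen-binding protein of matrix-making cells, at 33.2 and 28.8 FPKM in T_Y88A TS13 and TS12 against 44.0 FPKM in the wt library (limma adjusted p = 0.189), and Nid2, the second nidogen, at 17.6 and 18.2 FPKM against 22.9 FPKM (limma adjusted p = 0.401). Of 24 collagen biosynthesis genes, none passed in limma (3 at an unadjusted p under 0.05, median log2 difference 0.015). P4hb, a subunit of the enzyme that hydroxylates collagen prolines, had 389 and 382 FPKM, against 401 FPKM. Ppib, a prolyl isomerase of collagen folding, had 249.5 and 273 FPKM, against 269 FPKM.

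Receptors and proteases gave no calls either. Of 8 receptor genes none passed in limma (1 at an unadjusted p under 0.05, median 0.27). The shared integrin subunit Itgb1 had 76.3 and 74.4 FPKM in T_Y88A TS13 and TS12, against 91.5 FPKM in the wt library, and the cell surface proteoglycan Sdc1 had 41.2 and 45.5 FPKM, against 45.7 FPKM. Of 9 turnover genes none passed (3 at an unadjusted p under 0.05, median -0.39). The collagen-degrading protease Mmp2 had 14.0 and 15.1 FPKM, against 21.3 FPKM, and Mmp14, which activates it, 10.8 and 11.1 FPKM, against 15.2 FPKM. Of 4 regulators tested none passed (0 at an unadjusted p under 0.05, median -0.13). Twist1, a mesenchymal transcription factor, had 10.4 and 8.05 FPKM, against 10.5 FPKM, and the matrix-linked growth factor regulator Ctgf 1.58 and 0.438 FPKM, against 1.04 FPKM.

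Endothelial cells make collagen IV, laminin and nidogen, and their markers were read in the same embryo libraries. Of 9 endothelial markers, 7 fell and 0 rose in limma, where 1.63% of all genes fell and 0.763% rose. The list summed to 38.3 and 27.1 FPKM in T_Y88A TS13 and TS12, against 83.9 FPKM in the wt library, with no marker at 0. Lama4, the laminin alpha chain of endothelium, had mutant values above the wt library, as given above. The part of endothelial cells in the laminin, nidogen and collagen IV values was not tested. Visceral and parietal endoderm, a rich source of Lama1 and collagen IV, had 12 markers summing to 12.8 and 12.4 FPKM in the mutant libraries and 17.3 FPKM in the other, of which Rhox5 accounted for 0.371 and 0.239 FPKM against 4.96 FPKM. Rhox5 was the 1 of 5 tested markers that fell. Amn was listed at 0 in T_Y88A TS13, and Afp, Amn and Ttr at 0 in the wt library. All 6 erythroid markers and 5 of 6 presomitic mesoderm markers fell as well, with erythroid sums of 2196 and 1111 FPKM in T_Y88A TS13 and TS12, against 6277 FPKM in the wt library, and presomitic sums of 26.9 and 40.7 FPKM, against 170 FPKM. Gut endoderm markers summed to 12.4 and 16.0 FPKM, against 31.6 FPKM, with Nepn lower among 4 tested. The 8 neural markers lay the other way, at 71.6 and 47.8 FPKM in T_Y88A TS13 and TS12, against 31.2 FPKM in the wt library, with Sox2 higher, 5 of 8 at an unadjusted p under 0.05 and a median log2 difference of 0.79. None of the erythroid, presomitic, gut or neural markers was at 0 in these 3 libraries, and the part of these cells in the values above was not tested. The marker calls were not followed through the alternative fits. Over all genes, the 267 calls in embryos became 34 under quantile normalization and 0 with no filter.

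**Figure D4:**
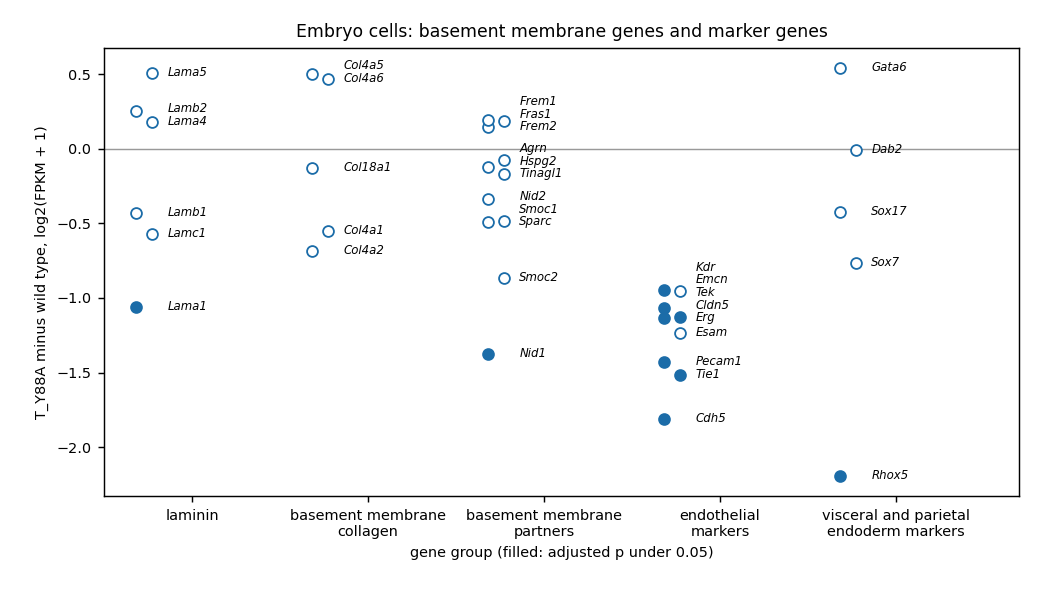
Difference of log2(FPKM + 1), T_Y88A minus wt in embryo cells, for tested laminins, basement membrane collagens, their partner proteins and markers of endothelium and of visceral and parietal endoderm, 1 point per gene and filled where limma's adjusted p is under 0.05. Lama1 (-1.06) and Nid1 (-1.38) are filled beside 7 of 9 endothelial markers.

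Between the T_Y88A embryo stages, with 1 library each and no test, none of 24 members differed by 2-fold on log2(FPKM + 1) between TS13 and TS12, where 1.03% of 11057 genes did (0.443% higher and 0.588% lower in TS13). Col2a1 came closest, at 6.96 FPKM in TS13 and 3.26 FPKM in TS12 (log2 difference 0.90). Lama1 stood at 3.98 FPKM in TS13 and 2.80 FPKM in TS12 (0.39). The median over members was 0.15 and over all genes -0.011.

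In Day 4 cells, again 1 library each and no test, none of 17 members differed by 2-fold between T_Y88A and the wt library, where 1.94% of 11550 genes did (0.641% higher and 1.3% lower in T_Y88A). Lama1 had 1.36 FPKM in T_Y88A and 1.50 FPKM in the wt library. Lama5 had 28.7 FPKM in T_Y88A, against 21.3 FPKM, the log2 difference being 0.41. Lamb1 had 25.9 FPKM, against 30.8 FPKM, and Lamc1 18.4 FPKM, against 22.3 FPKM (log2 differences -0.24 and -0.26). These chains lay on the same side as in the embryo, Lama1 by a log2 difference of only -0.085. Lamb2 and Lama4 lay on the other side from the embryo. Lamb2 had 6.31 FPKM in T_Y88A, against 6.51 FPKM in the wt library (log2 difference -0.039). Lama4 had 0.774 FPKM, against 0.960 FPKM, and was below the level used here.

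For Col4a1 the Day 4 libraries lay the other way round from the embryo. Col4a1 had 11.7 FPKM in T_Y88A and 9.36 FPKM in the wt library, while Col4a2 had 3.66 FPKM and 4.68 FPKM. Col4a5 had 1.46 FPKM and 1.57 FPKM, and Col18a1 85.1 FPKM and 70.7 FPKM. The interaction of genotype and system, which asks whether the genotype difference is another one in Day 4 cells, gave 0 of 24 members in limma, against 0.147% of 11602 genes (0.0862% above 0 and 0.0603% below), and 3 of 24 members and 1476 genes at an unadjusted p under 0.05. Those 3 were Col4a1 (interaction 0.84 ± 0.28 SE, limma adjusted p = 0.351), Lama1 (0.97 ± 0.39, limma adjusted p = 0.387) and Col1a1 (-1.04 ± 0.33, limma adjusted p = 0.334), named after their values were seen.

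Over embryo and Day 4 libraries together, with the system as a covariate, the genotype difference gave 0 of 24 members in limma against 0.069% of 11602 genes (0.00862% higher and 0.0603% lower), and 5 members and 1117 genes at an unadjusted p under 0.05. The 5, named after their values were seen, were Lama1 (log2 difference -0.64 ± 0.27 SE), Col4a2 (-0.52 ± 0.18), Lamc1 (-0.44 ± 0.16), Lamb1 (-0.35 ± 0.14) and Lama5 (0.47 ± 0.15), with limma adjusted p between 0.447 and 0.497.

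Between Day 4 cells and embryo cells most of the tested members differed. Of 24 members tested over the 5 libraries, limma called 4 higher and 16 lower in Day 4 cells, or 83.3% against the 51.9% of 11602 genes called. With no filter on low values the counts were 10 higher and 16 lower of 55 members, and 6051 genes were called in all. The share of all genes called in that fit was not worked out, so these member counts have no share beside them. The members lower in Day 4 cells made 66.7%, against 26% of all genes, and the higher ones 16.7%, against 25.9%. The members' median log2 difference was -1.05, and that of all genes -0.0086. The filter is a mean over 3 embryo and 2 Day 4 libraries, so it favours genes high in embryo cells. Most members called lower averaged under 1 FPKM in Day 4 cells and so passed it only through the embryo libraries. They are Col1a1, Col1a2, Col3a1, Col5a2, Col11a1, Col27a1, Col4a6, Col9a1, Col23a1, Col26a1 and Lama4. Col9a3, called higher, averaged 0.567 FPKM in embryo cells and passed it only through the Day 4 libraries. Lamb3 and Col16a1, above 1 FPKM in Day 4 cells only, did not pass it. The filter thus sets part of the lean towards lower calls. The 2 Day 4 libraries and the 3 embryo libraries did not overlap for 21 of 24 members, 5 higher and 16 lower in Day 4 cells, and for 68.8% of all genes, 34% higher and 34.8% lower. The source of the cells and the culture conditions cannot be told apart. The calls of Lamb2, Col4a1, Col11a1 and Col23a1 ended when 1 library was left out, with limma adjusted p of up to 0.0961 for Lamb2, 0.163 for Col4a1, 0.182 for Col11a1 and 0.0606 for Col23a1.

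**Figure D5:**
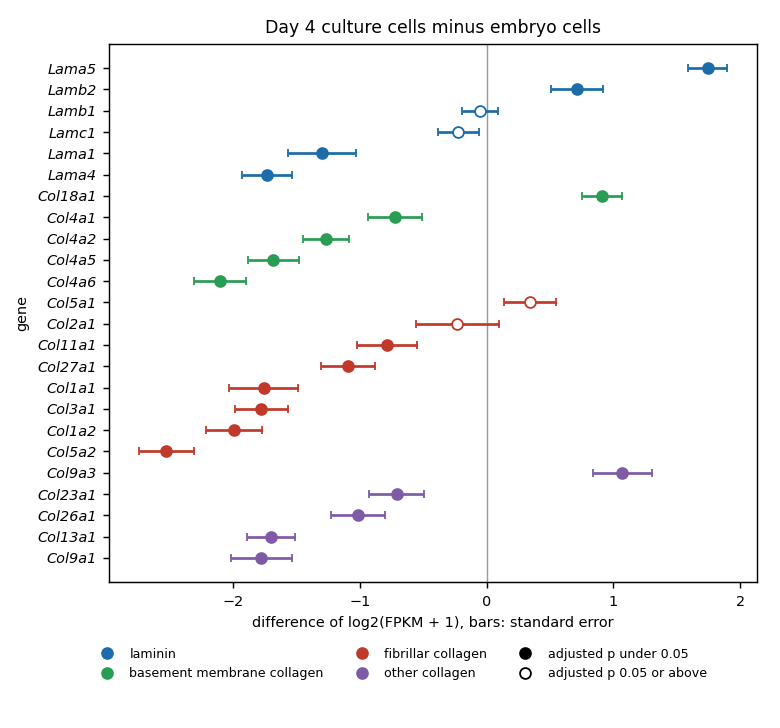
Difference of log2(FPKM + 1), Day 4 minus embryo with genotype as a covariate, for the 24 members tested over 5 libraries, with bars for the limma standard error. Lama5, Lamb2, Col18a1 and Col9a3 are the 4 filled circles above 0, and most fibrillar collagens lie below -1.

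Fibrillar collagens were called lower in Day 4 cells for 6 of 8 members tested, against 26% of all genes. All 6 averaged under 1 FPKM in Day 4 cells and passed the filter only through the embryo libraries. The count is thus not free of the filter. Col5a2 had 0.0811 and 0.133 FPKM in Day 4 T_Y88A and the Day 4 wt library, against 4.13 to 5.94 FPKM in the 3 embryo libraries (log2 difference -2.53 ± 0.22 SE, limma adjusted p = 7.53e-05). Col3a1 had 0.0614 and 0.0876 FPKM, against 2.51 to 2.95 FPKM (-1.78 ± 0.21). Type I collagen was low as well, with Col1a1 at 0.104 and 0.163 FPKM, against 1.61 to 4.10 FPKM (-1.76 ± 0.27), and Col1a2 at 0.588 and 0.569 FPKM, against 4.53 to 7.04 FPKM (-1.995 ± 0.22). Since 1 is added before the log, these differences understate the ratio of FPKM.

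The remaining fibrillar chains split. Col27a1 had 0.204 and 0.195 FPKM in the Day 4 libraries, against 1.41 to 1.76 FPKM in embryos, and Col11a1 0.228 and 0.622 FPKM, against 1.12 to 1.70 FPKM, and both passed. Col5a1 had 3.17 and 3.07 FPKM, against 1.81 to 2.97 FPKM, and Col2a1 2.67 and 2.70 FPKM, within the embryo range of 1.91 to 6.96 FPKM. Neither Col5a1 (limma adjusted p = 0.199) nor Col2a1 (limma adjusted p = 0.581) passed. Col5a1 thus lay above 3 FPKM in Day 4 cells, where Col5a2, its usual partner chain, was at or below 0.133 FPKM. Col24a1, not tested here, had 0.267 and 0.159 FPKM, against 1.13 to 1.94 FPKM.

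Laminin alpha chains went different ways between the systems. Lama5 was higher in Day 4 cells, at 28.7 and 21.3 FPKM in T_Y88A and the wt library, against 5.41 to 8.29 FPKM in embryo cells (log2 difference 1.74 ± 0.15 SE, limma adjusted p = 7.99e-05). Lama1 was lower, at 1.36 and 1.50 FPKM, against 2.80 to 8.08 FPKM (-1.30 ± 0.27, limma adjusted p = 0.00434). Lama4 was lower too, at 0.774 and 0.960 FPKM, against 4.74 to 5.72 FPKM (-1.74 ± 0.20). The ratio of Lama5 to Lama1 reached 21.1 and 14.2 in Day 4 cells and lay between 0.670 and 2.84 in embryo cells.

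The beta 1 and gamma 1 chains did not pass between systems. Lamb1 had 25.9 and 30.8 FPKM in Day 4 cells, inside the embryo range of 25.3 to 34.6 FPKM (limma adjusted p = 0.762), and Lamc1 18.4 and 22.3 FPKM, inside 17.9 to 29.7 FPKM (limma adjusted p = 0.271). Lamb2 was higher, at 6.31 and 6.51 FPKM, against 3.09 to 4.53 FPKM (0.71 ± 0.20, limma adjusted p = 0.0187). Lamb3 had 2.17 and 2.14 FPKM in Day 4 cells, against 0.0863 to 0.377 FPKM in embryo cells. It averaged under 1 FPKM over the 5 libraries and was not tested. Lama3, also below that level, stood at 0.208 and 0.267 FPKM in Day 4 cells.

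Of basement membrane collagens, 1 was higher and 4 were lower in Day 4 cells, and of these Col4a6 passed the filter only through the embryo libraries. Col18a1 had 85.1 and 70.7 FPKM in T_Y88A and the wt library, against 36.2 to 43.7 FPKM in embryo cells (log2 difference 0.91 ± 0.16 SE, limma adjusted p = 0.00196). Col4a1 had 11.7 and 9.36 FPKM, against 14.4 to 22.9 FPKM (-0.72 ± 0.21), and Col4a2 3.66 and 4.68 FPKM, against 8.53 to 15.0 FPKM (-1.27 ± 0.18). Col4a5 had 1.46 and 1.57 FPKM, against 5.62 to 8.34 FPKM (-1.68 ± 0.20), and Col4a6 0.587 and 0.611 FPKM, against 4.71 to 7.01 FPKM (-2.11 ± 0.21). Within the pairs the ratios differed from those of the embryo. Col4a1 to Col4a2 was 3.20 and 2.00 in Day 4 cells, against 1.52 to 1.74, and Col4a5 to Col4a6 was 2.48 and 2.58, against 1.19 to 1.22.

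Among the other collagens, Col9a3 was higher in Day 4 cells and 4 were lower. Col9a3 passed the filter only through the Day 4 libraries, and Col9a1, Col23a1 and Col26a1 only through the embryo libraries. Col9a3, a partner of Col9a1 in type IX collagen, had 2.76 and 1.83 FPKM, against 0.461 to 0.726 FPKM in embryo cells (log2 difference 1.07 ± 0.23 SE, limma adjusted p = 0.00586). Col9a1 had 0.0125 and 0.0657 FPKM, against 1.70 to 3.79 FPKM (-1.78 ± 0.24). Col9a1 and Col9a3 therefore lay on opposite sides. Col9a2, the other type IX chain, was under the level tested. It had 0.817 and 0.930 FPKM in Day 4 cells, against 0.0580 to 0.411 FPKM, on the side of Col9a3. Col13a1 had 1.28 and 0.904 FPKM, against 5.62 to 6.42 FPKM (-1.71 ± 0.19). Col26a1 had 0.757 and 0.935 FPKM, against 2.37 to 3.13 FPKM (-1.01 ± 0.21), and Col23a1 0.456 and 0.467 FPKM, against 1.11 to 1.56 FPKM (-0.71 ± 0.22). Col16a1, a fibril-associated collagen under the level tested, had 1.39 and 1.40 FPKM in Day 4 cells, against 0.0508 to 0.159 FPKM.

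Of the genes that work with these chains, 7 of 8 receptors were higher in Day 4 cells and 1 was lower. Over all genes 51.9% were called, 25.9% higher and 26% lower, and the counts of these lists are to be read against that. Itgb1 had 104 and 121 FPKM in Day 4 cells, against 74.4 to 91.5 FPKM in embryo cells, while Sdc1, the lower one, had 21.1 and 17.4 FPKM, against 41.2 to 45.7 FPKM. Of 22 collagen biosynthesis genes 1 was higher and 8 were lower, a smaller share called than over all genes, among them P4hb at 187 and 197 FPKM, against 382 to 401 FPKM, and Ppib at 143 and 206 FPKM, against 249.5 to 273 FPKM. Of 11 basement membrane partners 5 were higher and 4 lower. Sparc had 88.1 and 68.2 FPKM, against 28.8 to 44.0 FPKM, Nid2 37.7 and 40.9 FPKM, against 17.6 to 22.9 FPKM, and Nid1 1.86 and 2.06 FPKM, against 2.54 to 10.4 FPKM. The calls of Nid1, Ppib and Itgb1 ended when 1 library was left out, with limma adjusted p of up to 0.151, 0.108 and 0.0993.

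Turnover genes gave 2 higher and 3 lower of 10 tested, near the 51.9% called over all genes. Mmp2 was among the lower ones, at 11.2 and 9.77 FPKM in Day 4 cells, against 14.0 to 21.3 FPKM in embryo cells, and Mmp14 did not pass, at 10.6 and 12.5 FPKM, against 10.8 to 15.2 FPKM. Of 3 regulators tested Ctgf was higher, at 27.2 and 28.2 FPKM, against 0.438 to 1.58 FPKM, and 2 were lower, Twist1 among them at 7.30 and 4.61 FPKM, against 8.05 to 10.5 FPKM. The calls of Mmp2 and Twist1 ended when 1 library was left out, with limma adjusted p of up to 0.162 and 0.327.

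Marker sums of several cell types lay apart between Day 4 and embryo cells, while neural and visceral and parietal endoderm sums overlapped. The 9 endothelial markers summed to 1.37 and 2.79 FPKM in Day 4 T_Y88A and the Day 4 wt library, against 27.1 to 83.9 FPKM in embryo cells, with Emcn and Erg listed at 0 in both Day 4 libraries and Cdh5 in T_Y88A. The 8 surface ectoderm and epithelial markers, led by Krt8, Krt18 and Epcam, summed to 1385 and 1376 FPKM, against 151 to 238 FPKM, with 4 of 5 tested higher, Grhl3 lower and Krt5 listed at 0 in Day 4 T_Y88A and in the embryo wt library. The 5 feeder fibroblast markers, a check on carry-over from the stem cell cultures, summed to 0.621 and 1.28 FPKM in Day 4 cells, against 5.51 to 8.57 FPKM in embryo cells. S100a4 was listed at 0 in every library but Day 4 wt, and Lum in both Day 4 libraries and the embryo wt library, which listed Dcn at 0 as well. Gut endoderm markers, 7 genes, summed to 298 and 213 FPKM in Day 4 cells, against 12.4 to 31.6 FPKM in embryo cells, with 3 of 5 tested higher and 1 lower. Notochord and node markers summed to 47.6 and 81.3 FPKM, against 3.86 to 11.7 FPKM, with 4 of 6 higher. Erythroid markers summed to 2.27 and 0.658 FPKM in Day 4 cells, against 1111 to 6277 FPKM in embryo cells, with 5 of 6 lower and 4 listed at 0 in each Day 4 library. Presomitic mesoderm markers summed to 5.69 and 12.4 FPKM, against 26.9 to 170 FPKM, with 6 of 6 lower and 2 listed at 0 in Day 4 T_Y88A. Of 7 neural markers tested 3 were lower, and the list summed to 36.5 and 47.0 FPKM, against 31.2 to 71.6 FPKM. Visceral and parietal endoderm markers summed to 15.9 and 11.3 FPKM, against 12.4 to 17.3 FPKM. Of 5 tested, 1 was higher and 2 were lower, and 1 of the list was at 0 in each Day 4 library. The part of these cell types in the collagen and laminin values was not tested.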

How the data were processed

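The deposited table holds 1 FPKM column for each of 5 RNA libraries, and the FPKM were used as the authors deposited them. Column names were tied to samples through the number, stage or genotype they share with the labels, with 0 columns unused. Per the submitters' processing notes, TopHat2 2.0.8, Cufflinks 2.1.1, bedtools 2.23.0 and build mm10 were involved, with no roles named. No source used here states whether strand was counted, so overlapping transcripts, as at Col4a1 and Col4a2, cannot be separated.

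Tests used log2(FPKM + 1) of genes averaging at least 1 FPKM over the libraries compared, without 789 small RNA genes. limma 3.58.1 (R 4.3.3) with a variance trend gave two-sided Benjamini-Hochberg adjusted p over every gene in the fit (threshold 0.05) and was first tested on simulated data. The embryo fit had 1 residual and 11 prior degrees of freedom, the fit over all libraries with system and genotype 2 and 6.06, and the interaction fit 1 and 5.15. A lone library was assumed to vary like the others. With so few degrees of freedom, a gene that did not pass is not shown to be unchanged. Nothing states separate animals or cultures, so p-values measure the spread between these samples, which may be technical. With 1 library each, stage and Day 4 comparisons had no test.

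All 55 members matched a RefSeq symbol (GRCm38.p6), and coordinates count from 1. Plots used Python 3.11.15 and matplotlib 3.10.9. The values of 1 member are not reported here. Members and lists were chosen with earlier results of these data known. Members averaging at least 1 FPKM over 5 libraries are named with values, as are companion genes called in the embryo, genotype or interaction fits and the 2 most abundant of each list. Alternatives changed the pseudocount, filter, normalization, small RNA genes, variance model and libraries.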

Additional observations from a re-analysis of the deposited data

How the results depend on the processing

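In embryo cells the count of called members, 1, became 0 with a pseudocount of 0.1 (Lama1 adjusted p = 0.0611), no filter on low values (0.364), quantile normalization (0.139), small RNA genes kept (0.0768), no variance trend (0.0700) and a minimum mean of 5 FPKM, where Lama1 was not among the 12 members tested. It remained 1 with robust variance estimates. The log2 difference of Lama1 lay between -1.26 and -0.87 with 1 T_Y88A library left out, a value with no test, since no residual degree of freedom is left. The 267 genes called in embryos became 34 under quantile normalization and 0 with no filter. Between Day 4 and embryo cells the count of 20 members became 5 of 7 tested at a minimum mean of 5 FPKM, where fewer genes are tested, and 26 of 55 (10 higher, 16 lower) with no filter, and lay between 15 and 18 with each library left out, lowest without the embryo wt library (15 of 21 tested). Calls ended for Lamb2 (no filter, and without any library but T_Y88A TS13), Col4a1 (no filter, and without either wt library), Col11a1 (without Day 4 T_Y88A) and Col23a1 (without either Day 4 library). Lamb1 changed sign under quantile normalization (0.0080) and lay between -0.16 and 0.026 with 1 library left out, and Col2a1 between -0.67 and 0.35, neither passing in any of these fits. The causes were not tested. The genotype and interaction counts of members were 0 in all alternatives run. Over all genes the genotype fit called 8, and between 1 and 54 in its alternatives, and the interaction called 17, between 7 and 42 in its alternatives but 1246 with no filter. Between TS13 and TS12, 1 member, Col2a1, passed 2-fold with a pseudocount of 0.1, against 0. No paired analysis was possible because the groups compared share fewer than 2 replicate numbers. FPKM keep no read totals, so counting error and detection limits are unknown, and low values in the shallow Day 4 T_Y88A library rest on few fragments.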
